A study of Mus musculus with 6 samples.

Results

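The TALE homeobox genes that encode cofactors of HOX proteins were followed in leukemia cells of mice with and without IRX3. The members were found by gene symbol and comprise 9 of the 41128 genes of the table, namely Meis1, Meis2, Meis3, Pbx2, Pbx3, Pbx4, Pknox1, Tgif1 and Tgif2. Murine KIT+ bone marrow cells on a C57BL/6 background were transduced with retroviral FLAG-tagged Hoxa9 together with either a retrovirus carrying MYC-tagged human IRX3 (Hoxa9/IRX3) or the empty control vector MTV (Hoxa9/MTV), and were transplanted with supporting CD45.2+ marrow into irradiated young adult female recipients. Leukemias of both cohorts therefore carry exogenous Hoxa9 and a second vector, and differ in IRX3. RNA came from thawed bone marrow of sick mice, sorted for donor CD45.1+ KIT+Gr1+ cells, with 1 library per mouse and 3 mice per cohort: 1.1, 1.2 and 1.4 for Hoxa9/MTV, and 3.2, 3.3 and 3.5 for Hoxa9/IRX3. Both transgenes were driven by retroviral vectors in marrow cells selected with drugs. Mice were taken when sick, so that the time from transplantation was not matched between cohorts, and the ages of the individual mice were not used here. Age and IRX3 cannot be told apart.

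HOX proteins bind DNA poorly on their own and gain sequence specificity through TALE partners, whose homeodomain has an extended loop between its first helices. PBX proteins bind DNA beside HOX proteins, MEIS and PKNOX proteins hold PBX in the nucleus and bind a neighboring site, and TGIF proteins are repressors that recognize a core like that of MEIS and recruit corepressors, also to SMAD complexes. HOXA9 with MEIS1 and PBX3 is the best known leukemia-forming combination of this kind, and IRX3 itself belongs to the TALE class.

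Values are given as RPM, the reads of a gene per 1000000 reads of the library, which is the deposited RPKM (RPM per kilobase of gene) multiplied by the length of the gene in kilobases. The libraries held 7979246 to 9803621 reads. Tests used limma on log2(RPM + 0.5) over 11380 genes, and on log2(RPKM + 0.5) over 9522 genes, with an adjusted p under 0.05 as the threshold for a call. RPKM here divides by the whole gene with its introns, so that a long gene with few reads lies under the pseudocount and its difference is compressed on the RPKM scale. In these bulk samples, fewer cells that express a gene and less RNA per cell cannot be told apart. Nothing in the sources says that the mice came from separate transductions, so that p-values measure the spread between mice alone. Of the marker genes for the sort, Kit was present at 133 to 255 RPM and Ly6c2, a Gr1 antigen, at 1570 to 3220. Ly6g, the other antigen, was low, at 0.207 to 0.565 RPM in Hoxa9/MTV mice and 2.65 to 5.53 in Hoxa9/IRX3 mice. Hba-a1, Pax5, Cd3d and Fcer1a, which mark erythroid, B, T and mast cells, had no reads in any mouse. Other markers of these types were read: the 6 erythroid markers summed to at most 1.02 RPM, Cd79b of B cells was at 20.9 to 24.2 RPM in Hoxa9/MTV mice and 0.51 to 7.9 in Hoxa9/IRX3 mice, and Nkg7 of NK cells was at 26.6 to 38.7 and 17.4 to 566. Vpreb1 of B cells went the other way, at 0.12 to 0.414 RPM in Hoxa9/MTV mice and 0.564 to 6.64 in Hoxa9/IRX3 mice. Gata2, Mcpt8 and Cpa3 of mast cells and basophils were at 38.8 to 76.7, 26.7 to 41.8 and 11.8 to 38.8 RPM in Hoxa9/MTV mice. In Hoxa9/IRX3 mice they were at 0.204 to 10.2, 9.71 to 20.4 and 0 to 3.13 RPM. Ms4a2 of the same types was higher there, at 5.0 to 8.92 RPM against 2.29 to 4.45 in Hoxa9/MTV mice.

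The introduced genes were read first. Irx3 had no reads in the Hoxa9/MTV mice, and 51.2, 1.43 and 0.501 RPM in mice 3.2, 3.3 and 3.5. All Hoxa9/IRX3 mice were thus above all Hoxa9/MTV mice, but mouse 3.2 held nearly all of the signal. This row counts reads that aligned to the mouse gene, while the transgene is human, so that its level does not measure the dose of IRX3. Hoxa9 had 2717, 2901 and 1394 RPM in mice 1.1, 1.2 and 1.4 and 1932, 1231 and 1768 in mice 3.2, 3.3 and 3.5. The cohorts overlapped, with a log2 difference of -0.46 ± 0.33 (SE) on the RPM scale (limma, adjusted p = 0.411), so that the partner of the TALE cofactors was abundant in both.

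Among the 9 genes, Meis1 was read in every Hoxa9/MTV mouse and in no Hoxa9/IRX3 mouse, and it was the single member called on the RPM scale. Pbx2 and Pbx4 were lower in each Hoxa9/IRX3 mouse than in each Hoxa9/MTV mouse without passing the test, and Pknox1 and Tgif1 overlapped between the cohorts. Pbx3 had a higher mean in Hoxa9/IRX3 leukemias with overlapping cohorts. Meis2, Meis3 and Tgif2 had at most 17 reads in any mouse.

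MEIS1 is the MEIS protein of blood stem cells and a partner of HOXA9 in leukemia. Its gene (ENSMUSG00000020160) lies on the minus strand at chr11:18879817-19018985 of GRCm38. The bases before its RefSeq start are shown because it is the member whose RNA was at 0 in one cohort. The stretch is chr11:19018986-19019219 on the minus strand (RefSeq, GRCm38.p6), cut before the first annotated exon, with capitals marking a CCAAT box.
Meis1: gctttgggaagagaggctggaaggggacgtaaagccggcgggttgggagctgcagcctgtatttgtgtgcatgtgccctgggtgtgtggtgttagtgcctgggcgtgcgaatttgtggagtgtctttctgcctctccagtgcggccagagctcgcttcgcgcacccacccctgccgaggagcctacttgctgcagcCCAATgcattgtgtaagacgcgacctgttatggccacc

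Windows from 250 bases before to 50 bases after each RefSeq start were searched on both strands for the HOX-PBX motif TGATTNAT, the MEIS motif TGACAG, the TGIF and PKNOX core TGTCA, which overlaps the MEIS motif, and CCAAT. These letters were found in 3.2%, 19.2%, 45.4% and 37.4% of all 32851 windows. The Meis1 window held CCAAT alone, at bases -54 to -50 from the start. Of the 9 genes, 7 had 11 windows in all, and the HOX-PBX letters were found in 1 of them, a window of Tgif1, at bases -134 to -127 from the start.

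Meis1 had 46.1, 47.9 and 121 RPM in mice 1.1, 1.2 and 1.4, from 408, 398 and 1174 reads. Each Hoxa9/IRX3 library had 0 reads for Meis1, which allows up to 3 reads, or 0.306 to 0.376 RPM, by counting error alone. The cohorts did not overlap, and mouse 1.4 was the highest of the Hoxa9/MTV mice. The Hoxa9/MTV mean of 71.8 ± 42.9 RPM (SD, n = 3) was at least 211-fold higher than a floor of 3 reads in each Hoxa9/IRX3 library, and at least 138-fold higher without mouse 1.4, the mean of the others being 47.0.

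On the RPM scale, the fitted log2 difference of Meis1 was -7.02 ± 0.44 (SE), with an adjusted p of 0.00072 in limma. The size depends on the pseudocount and is no bound, and Meis1 entered this test through the Hoxa9/MTV mice alone. The call was kept with any 1 mouse left out, at adjusted p values of 0.00259 to 0.0123, and was lost in limma voom (adjusted p = 0.119). On the RPKM scale the mice had 0.332, 0.344 and 0.872 RPKM against 0, so that Meis1 entered the test through mouse 1.4 alone, and its log2 difference of -0.98 ± 0.23 was not called (limma, adjusted p = 0.0631). With a pseudocount of 0.1 RPKM the difference was -2.51 (adjusted p = 0.0399), and with the exon length in place of the whole gene it was -3.74 (adjusted p = 0.00491).

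Marker levels that differed between the cohorts are given beside Meis1, and their part in its difference was not tested. The summed level of 6 stem cell markers was 344 to 417 RPM in Hoxa9/MTV mice, nearly all of it Cd34, and 25.6 to 76.6 in Hoxa9/IRX3 mice, where Hlf, which was higher there, made up 11.2, 25.2 and 22.3 RPM in mice 3.2, 3.3 and 3.5. The 8 monocyte markers summed to 2992 to 3281 and 841 to 2340 RPM, and 5 mast cell and basophil markers to 94.6 to 158 and 22.4 to 35.2. Ms4a2, in the latter sum, was itself higher in Hoxa9/IRX3 mice. The 6 B cell markers summed to 22.2 to 25.1 and 2.04 to 14.5 RPM, again without overlap. Nearly all of the Hoxa9/MTV sum was Cd79b. Vpreb1, in the same sum, was itself higher in Hoxa9/IRX3 mice, and Cd79a overlapped between cohorts. Of the 2 B cell markers tested on the RPM scale, 0 were called. The summed level of the 4 blood markers went the other way, at 6854 to 10570 RPM in Hoxa9/MTV mice and 15370 to 19130 in Hoxa9/IRX3 mice. Nearly all of that sum was Mpo and Elane. Ptprc, at 172 to 202 and 197 to 235 RPM, and Spi1, at 244 to 286 and 90.5 to 265, overlapped between cohorts. The summed level of the 5 genes of the sort, most of it Ly6c2, overlapped between cohorts, at 2068 to 2277 and 1996 to 3749 RPM. Ly6g did not overlap, at 0.207 to 0.565 RPM in Hoxa9/MTV mice and 2.65 to 5.53 in Hoxa9/IRX3 mice. Of the 4 sort genes tested on the RPM scale, 1 was called higher. Among the 8 megakaryocyte markers, a lineage that expresses Meis1, Gp1ba and Ppbp had no reads and the sum overlapped between cohorts, at 9.95 to 16.1 and 4.28 to 28.8 RPM. The antisense genes Gm16140 and Gm16141 inside Meis1 had 0 reads in every mouse.

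Meis2 and Meis3, the paralogs of Meis1, were not detectable at this depth in either cohort. Meis2 (chr2:115863064-116065839, minus strand) had 1 read in mouse 1.4 and 0 in the other mice. Meis3 (chr7:16175090-16186504, plus strand) had 0 reads in every mouse. Neither was tested, and 3 reads per library bound them from above in libraries with 0.

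Pknox1, which encodes the MEIS-related protein PREP1, was read in all mice, with overlapping cohorts. The gene lies on the plus strand at chr17:31564734-31607693. It had 101, 84.0 and 95.4 RPM in mice 1.1, 1.2 and 1.4 and 82.1, 84.9 and 76.2 in mice 3.2, 3.3 and 3.5. Mouse 3.3 exceeded mouse 1.2, and the other Hoxa9/MTV mice lay above all Hoxa9/IRX3 mice. Pknox1 had a log2 difference of -0.20 ± 0.13 (SE), with a 95% interval of -0.51 to 0.10 and an adjusted p of 0.369 in limma on the RPM scale.

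**Figure D1:**
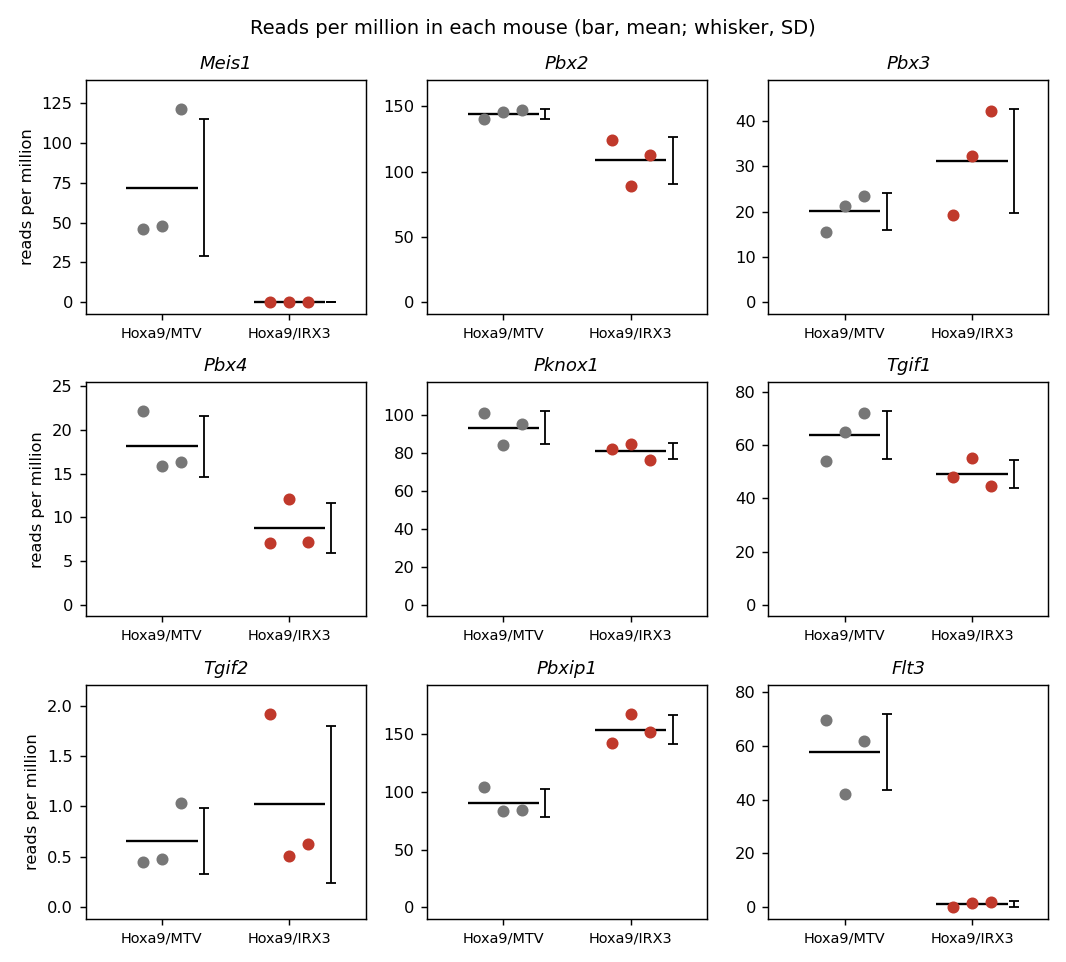
RPM (linear y axis) in each mouse for 7 TALE cofactor genes with more than 1 read and for Pbxip1 and Flt3, by cohort. Points are mice, bars are means and whiskers are SD (n = 3). Meis1 is at 46.1 to 121 in Hoxa9/MTV mice and at 0 in Hoxa9/IRX3 mice, while Pknox1 and Tgif1 overlap.

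The PBX genes among the members differed in the sign of their differences, and none was called. Pbx2 (ENSMUSG00000034673, chr17:34591266-34597400, plus strand) encodes a broadly expressed PBX protein. It had 140, 145 and 147 RPM in mice 1.1, 1.2 and 1.4 and 124, 88.7 and 113 in mice 3.2, 3.3 and 3.5. The cohorts did not overlap, and the Hoxa9/MTV mice lay close together at 144 ± 3.83 (SD, n = 3) against 109 ± 18.1. The ratio of the means was 0.753 and the log2 difference -0.42 ± 0.15 (SE), with an adjusted p of 0.149 in limma on the RPM scale and 0.177 on the RPKM scale. The annotated start of Pbx2 overlaps Gpsm3 on the same strand, so that reads there are uncertain, and Gpsm3 had 726 to 847 reads in each mouse.

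Pbx3, which encodes the PBX partner of HOXA9 and MEIS1 in leukemia, had the opposite sign. The gene (chr2:34171457-34373142, minus strand) had 15.5, 21.2 and 23.5 RPM in mice 1.1, 1.2 and 1.4 and 19.3, 32.3 and 42.1 in mice 3.2, 3.3 and 3.5. Mouse 3.2 lay within the range of the Hoxa9/MTV mice, while mice 3.3 and 3.5 lay above it. Pbx3 had a log2 difference of 0.58 ± 0.32 (SE), with a 95% interval of -0.18 to 1.34 and an adjusted p of 0.307 in limma on the RPM scale. Pbx3 stayed under 0.5 RPKM in every mouse and was not tested on the RPKM scale.

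Pbx4, a PBX gene best known from testis, had the largest difference after Meis1 on the RPM scale. It lies on the plus strand at chr8:69832491-69872292, and the bases before its first annotated exon are printed for comparison with those of Meis1. They are chr8:69832374-69832490 on the plus strand (RefSeq, GRCm38.p6), with capitals marking CCAAT read on the other strand, at bases -197 to -193 from the start. A second match, at bases -30 to -26, lies past the printed stretch.
Pbx4: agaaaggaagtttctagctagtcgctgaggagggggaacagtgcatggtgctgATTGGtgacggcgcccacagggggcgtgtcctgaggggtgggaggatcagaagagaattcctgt

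Pbx4 had 22.2, 15.9 and 16.3 RPM in mice 1.1, 1.2 and 1.4 and 7.11, 12.1 and 7.14 in mice 3.2, 3.3 and 3.5. The cohorts did not overlap, with mouse 3.3 nearest to the Hoxa9/MTV mice. The means were 18.1 ± 3.50 and 8.80 ± 2.89 RPM (SD, n = 3), a ratio of 0.485. Its log2 difference was -1.03 ± 0.29 (SE) on the RPM scale with an adjusted p of 0.0877 in limma. Without mouse 3.3 it was -1.27 and called (adjusted p = 0.0406). That fit called 563 of all 11380 tested genes lower, against 405 with all mice. On the RPKM scale, where all mice but 1.1 were under 0.5 RPKM, the difference was -0.41 ± 0.15 (limma, adjusted p = 0.168).

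The TGIF genes encode repressors that act in retinoid and TGF-beta signaling. Tgif1 (chr17:70844205-70853546, minus strand) had 54.2, 65.1 and 72.1 RPM in mice 1.1, 1.2 and 1.4 and 48.0, 55.1 and 44.7 in mice 3.2, 3.3 and 3.5. The cohorts overlapped between mouse 1.1 and mouse 3.3. The log2 difference was -0.37 ± 0.17 (SE), with a 95% interval of -0.76 to 0.03 and an adjusted p of 0.22 in limma on the RPM scale. Tgif2 (chr2:156840007-156855570, plus strand) had 4, 4 and 10 reads in mice 1.1, 1.2 and 1.4 and 17, 5 and 5 in mice 3.2, 3.3 and 3.5. These counts were too low to be tested, and the opposite-strand gene 5430405H02Rik inside Tgif2 had 34 to 161 reads per mouse, which cannot be told apart if strand was not used in counting.

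Over the 6 members tested on the RPM scale, 1 was called lower and 0 higher, where 3.56% and 2.86% of all tested genes were called lower and higher. limma voom called 0 members. In limma 3 of the 6 had an unadjusted p under 0.05, as did 2879 of all 11380 tested genes. On the RPKM scale 0 of 5 members were called, against 3.52% lower and 1.84% higher among all tested genes. There 3 members had an unadjusted p under 0.05 in limma, as did 2315 of all 9522 tested genes. Every Hoxa9/IRX3 mouse was below every Hoxa9/MTV mouse for 3 of the 6 members, namely Meis1, Pbx2 and Pbx4, and for 20.7% of all tested genes. For 0 members was every Hoxa9/IRX3 mouse above, against 13.2% of genes. The median log2 difference was -0.39 over the 6 members and -0.08 over all tested genes, and 5 of 6 members and 56.7% of genes had a negative difference. Meis1 and Pbx4 passed the filter on the RPKM scale through Hoxa9/MTV mice alone. Meis1, with 0 reads in every Hoxa9/IRX3 mouse, did so on the RPM scale too. The counts on both scales therefore describe the members and are no support for a direction. Exact two-sided permutation tests of the means gave p = 0.1, the smallest possible with 3 mice against 3, for Meis1, Pbx2 and Pbx4, and 0.2 to 1 for the members that overlapped.

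The counts over all genes rest on the Hoxa9/MTV mice. All mice gave 405 lower and 325 higher genes on the RPM scale, while leaving out mouse 1.1, 1.2 or 1.4 gave 55 to 65 lower and 94 to 132 higher genes. On the RPKM scale 335 genes were lower and 175 higher, and 37 to 46 were lower and 24 to 28 higher without 1 of these mice. Higher genes made up 34.3% of those calls, and 46.1% under quantile normalization.

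**Figure D2:**
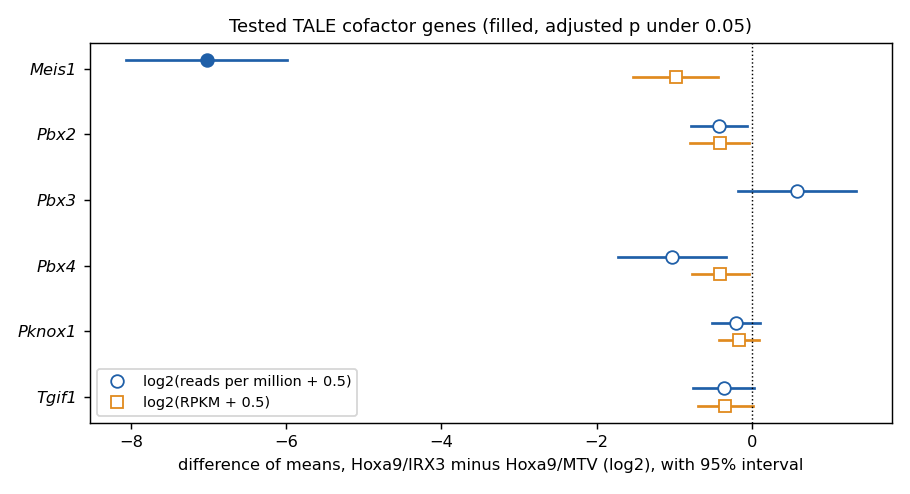
Log2 difference between cohort means (x axis, Hoxa9/IRX3 minus Hoxa9/MTV) with 95% intervals for the 6 tested members, on log2(RPM + 0.5) (circles) and log2(RPKM + 0.5) (squares, 5 members). Meis1 lies at -7.02 on the first scale and at -0.98 on the second, and is the single filled symbol, which marks an adjusted p under 0.05.

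Levels of different genes were compared per kilobase of exon, as RPM per kilobase. Whether reads in introns were counted is not known, and reads across splice junctions were not aligned. Reads at the start of Pbx2, which overlaps Gpsm3, are uncertain. The order between genes is therefore approximate. In Hoxa9/MTV leukemias Pbx2 stood first at 39.6 ± 1.05 (SD, n = 3), above every other member in every mouse. Pknox1 at 13.5, Tgif1 at 11.3, Pbx4 at 8.18 and Meis1 at 6.82 followed, and the ranges of each neighboring pair in that order overlapped. Pbx3 at 3.28 and Tgif2 at 0.171 were lower than these, without overlap with their neighbors.

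In Hoxa9/IRX3 leukemias Pbx2 was again first, at 29.8 ± 4.97 (SD, n = 3) RPM per kilobase of exon. Pknox1 at 11.7 and Tgif1 at 8.76 followed without overlap. Pbx3 at 5.12 came before Pbx4 at 3.97, the reverse of their order in Hoxa9/MTV leukemias, but the ranges of the pair overlapped. Tgif2 was at 0.266 and the MEIS genes at 0.

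The makeup of each family followed from these levels, has the same limits and is given as a description. Pknox1 made up 54.4% to 76.9% of the summed MEIS and PKNOX level in Hoxa9/MTV mice and 99.7% to 100% in Hoxa9/IRX3 mice, where Pknox2 supplied the rest. The summed level of that family was 16.7 to 25.3 RPM per kilobase of exon in the Hoxa9/MTV mice and 11.0 to 12.3 in the Hoxa9/IRX3 mice. Pbx2 made up 69.4% to 84.3% of the summed level of Pbx2, Pbx3 and Pbx4 in each mouse. The share of Pbx3 was 4.97% to 7.43% in Hoxa9/MTV mice and 7.81% to 16.8% in Hoxa9/IRX3 mice, the nearest values of the cohorts being almost equal. The summed level of these 3 genes was 50.6 to 51.7 and 35.1 to 41.1 RPM per kilobase of exon.

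**Figure D3:**
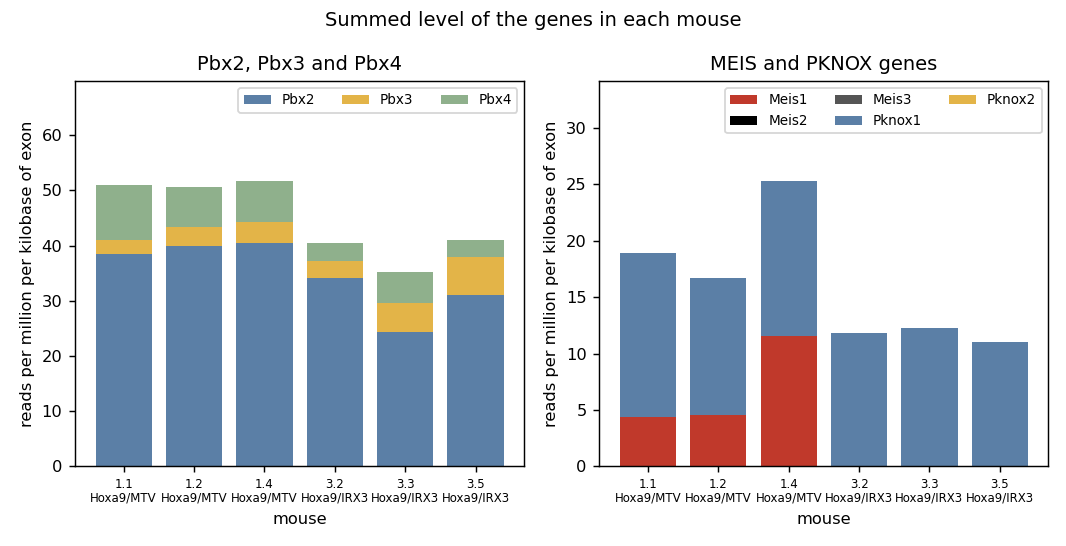
Level per mouse, in RPM per kilobase of exon (linear y axis from 0), stacked by gene for Pbx2, Pbx3 and Pbx4 (left) and the MEIS and PKNOX genes (right). Meis1 is present in the 3 Hoxa9/MTV bars of the right panel and absent from the 3 Hoxa9/IRX3 bars, and Pbx2 is the largest part of every bar on the left.

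Among 8 other TALE genes read here, 4 had no reads, and Irx3 was the single gene tested on the RPM scale, with a log2 difference of 3.21 ± 1.42 (SE) and an adjusted p of 0.214 in limma. Irx3 passed the filter through mouse 3.2 alone, with 454 reads there and 14 and 4 in mice 3.3 and 3.5.

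HOX genes bind DNA with these cofactors, and of 13 HOX genes of the A and B clusters 6 had no reads in any mouse. Of the 4 tested on the RPM scale, Hoxb3 was called higher, beside 2.86% of all tested genes. It passed the filter through Hoxa9/IRX3 mice alone. Hoxb3, a HOX gene of blood progenitors, had 0, 0.843 and 0.827 RPM in mice 1.1, 1.2 and 1.4 and 12.1, 23.1 and 3.76 in mice 3.2, 3.3 and 3.5, without overlap. The log2 difference was 3.49 ± 0.74 (SE), with an adjusted p of 0.0411 in limma. Leaving out any mouse but 3.5 ended this call (adjusted p of 0.136, 0.129, 0.13, 0.0631 and 0.0661 without mice 1.1, 1.2, 1.4, 3.2 and 3.3), as did limma voom (adjusted p = 0.227), pseudocounts of 0.1 and 2 RPM (0.0598 and 0.0523) and a fit with no variance trend (0.0535), and it was not called on the RPKM scale (adjusted p = 0.125).

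Of 9 genes whose products modify PBX, MEIS or HOXA9 function, 1 was called higher, beside 2.86% of all tested genes on the RPM scale. Pbxip1 (chr3:89436706-89450952, plus strand) encodes a protein that binds PBX and hinders its binding to DNA. It had 105, 83.2 and 84.3 RPM in mice 1.1, 1.2 and 1.4 and 143, 168 and 152 in mice 3.2, 3.3 and 3.5. Every Hoxa9/IRX3 mouse was above every Hoxa9/MTV mouse, with means of 154 ± 12.7 and 90.7 ± 12.1 (SD, n = 3) and a ratio of 1.70. Pbxip1 rose by a log2 difference of 0.77 ± 0.14 (SE) on the RPM scale (limma, adjusted p = 0.0282) and 0.73 ± 0.14 on the RPKM scale (adjusted p = 0.0383). Without mouse 1.1, 1.2 or 1.4 the adjusted p on the RPM scale was 0.0605, 0.129 and 0.138, and the call was lost, as it was with no variance trend (0.0574). The RPKM call was lost without mice 1.1, 1.2, 1.4, 3.3 and 3.5 in turn (adjusted p = 0.0961, 0.161, 0.164, 0.0625 and 0.0651), with genes of every type (0.0634) and with array weights (0.0721). The median log2 difference of the 9 genes was 0.09, and Creb1, Kmt2a, Men1, Cebpa, Ep300, Crebbp, Crtc1 and Crtc2 did not pass the test.

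Genes known as targets of HOXA9, MEIS1 and PBX3 did not move one way. Of 16, 13 were tested on the RPM scale, and 2 were called lower (Flt3 and Ccnd1) and 2 higher (Hlf and Hif1a). Of all genes tested there, 3.56% were called lower and 2.86% higher. The median log2 difference of the list was -1.16 beside -0.08 over all genes. Flt3 and Ccnd1 passed the filter through Hoxa9/MTV mice alone, and Hlf through Hoxa9/IRX3 mice alone, so that these counts are no support for a direction. On the RPKM scale 11 were tested, and 3 were called lower (Cd34, Flt3 and Ccnd1) and 1 higher (Hif1a), beside 3.52% and 1.84% of all tested genes. Flt3 and Ccnd1 passed the filter on this scale, too, through Hoxa9/MTV mice alone, and these counts are likewise no support for a direction.

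Flt3, the receptor of progenitors that MEIS1 is known to activate, had 69.7, 42.1 and 61.6 RPM in mice 1.1, 1.2 and 1.4 and 0.113, 1.73 and 1.76 in mice 3.2, 3.3 and 3.5. The cohorts were far apart, with Hoxa9/MTV 48.1-fold higher by the means. Flt3 had a log2 difference of -5.29 ± 0.55 (SE) with an adjusted p of 0.0054 in limma, and the call on the RPM scale held with any mouse left out. The RPKM call (log2 difference -1.35, adjusted p = 0.0102) was lost without mouse 1.1 or 1.4 (adjusted p = 0.0642 and 0.0712). Ccnd1, which encodes cyclin D1, had 36.9, 65.6 and 27.4 RPM in mice 1.1, 1.2 and 1.4 and 1.58, 0.306 and 1.504 in mice 3.2, 3.3 and 3.5. Its log2 difference was -4.78 ± 0.50 with an adjusted p of 0.00551 in limma, and voom did not call it (adjusted p = 0.0627).

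Cd34, a surface glycoprotein of progenitors, had 416, 344 and 412 RPM in mice 1.1, 1.2 and 1.4 and 18.4, 0.102 and 54.1 in mice 3.2, 3.3 and 3.5. The Hoxa9/IRX3 mice were all lower but differed widely among themselves. Cd34 was called on the RPKM scale (log2 difference -3.84 ± 0.58, limma adjusted p = 0.0206), where the call was lost without mouse 1.1, 1.2 or 1.4 (adjusted p = 0.0946, 0.0983 and 0.103), with a pseudocount of 0.1 RPKM (0.0553) and with no filter (0.0503). It was not called on the RPM scale, at -5.51 ± 1.51 and an adjusted p of 0.0798, but was called there with a pseudocount of 2 RPM (0.0472) and without mouse 3.3 or 3.5 (0.0121 and 0.0493). Those fits called 424, 563 and 464 of all 11380 tested genes lower, against 405 in the main fit.

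Hlf, a transcription factor gene of stem cells, had 0.452, 0 and 1.86 RPM in mice 1.1, 1.2 and 1.4 and 11.2, 25.2 and 22.3 in mice 3.2, 3.3 and 3.5. Its log2 difference was 4.19 ± 0.64 (SE) on the RPM scale (limma, adjusted p = 0.0151), and the call was lost without mouse 1.1 or 1.2 (adjusted p = 0.0692 and 0.0612) and in limma voom (adjusted p = 0.102).

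Hif1a, the hypoxia factor gene that MEIS1 is known to activate in stem cells, had 91.8, 102 and 131 RPM in mice 1.1, 1.2 and 1.4 and 179, 218 and 215 in mice 3.2, 3.3 and 3.5. The cohorts did not overlap and the ratio of the means was 1.88. Hif1a had a log2 difference of 0.92 ± 0.17 (SE) with an adjusted p of 0.027 in limma on the RPM scale. Without mice 1.1, 1.2, 1.4, 3.3 and 3.5 in turn the adjusted p was 0.11, 0.126, 0.0506, 0.0508 and 0.0577, and the call was lost, as it was with no variance trend (0.0535). The RPKM call was lost without the same 5 mice in turn (adjusted p = 0.135, 0.153, 0.0861, 0.0647 and 0.0733), with no filter (0.0588), with genes of every type (0.0597) and with array weights (0.0626).

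**Figure D4:**
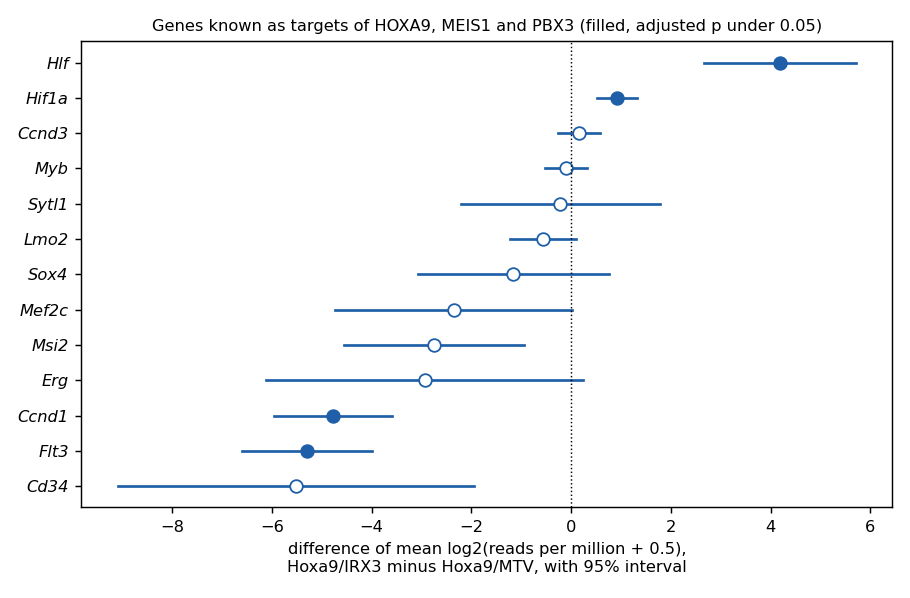
Log2 difference between cohort means on log2(RPM + 0.5) (x axis, Hoxa9/IRX3 minus Hoxa9/MTV) with 95% intervals for 13 tested genes known as targets of HOXA9, MEIS1 and PBX3. Filled symbols mark an adjusted p under 0.05: Flt3 and Ccnd1 lie at -5.29 and -4.78, Hif1a and Hlf at 0.92 and 4.19.

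The genes of TGIF corepression and TGF-beta signaling gave no call with all mice. Of 16 genes tested on the RPM scale, limma called 0 and limma voom 0. In limma 4 had an unadjusted p under 0.05, as did 2879 of all 11380 tested genes. Their median log2 difference was -0.14. The largest differences were those of Rara, a retinoic acid receptor gene, at -1.48 ± 0.61 (SE, adjusted p = 0.193), and Tgfbr2, a TGF-beta receptor gene, at -1.37 ± 0.69 (adjusted p = 0.264, limma). Tgfbr2 was called without mouse 3.5, with a log2 difference of -2.22 and an adjusted p of 0.0168, that mouse having 418 reads where mice 3.2 and 3.3 had 56 and 115. Smad4 was called lower without mouse 3.2 (-0.60, limma adjusted p = 0.0341). Smad3 was called higher without mouse 3.3 (0.78, limma adjusted p = 0.0445). Over all 11380 tested genes, 405 were called lower and 325 higher with all mice. The counts were 694 and 490 without mouse 3.2, and 563 and 391 without mouse 3.3. Without mouse 3.5 they were 464 and 294.

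Of 6969 protein-coding genes averaging 1 RPKM or more, those most like each member over the 6 mice were listed by Pearson's r of log2(RPKM + 0.5), a measure that the difference between the cohorts itself enters. For Meis1 these were Tm7sf2, Rps27 and Rbx1, with r of 0.986, 0.985 and 0.985. Rps27 is a ribosomal protein gene whose reads may be shared with pseudogenes. For Pbx2 they were Map7d1, Trim28 and Tyrobp (0.995, 0.995 and 0.994), and for Pbx4 Casp8, Dnajc7 and Arl10 (0.985, 0.982 and 0.982). Pknox1 was most like B3gat3, Oraov1 and Ggps1 (0.999, 0.992 and 0.991), and Tgif1 most like Apoe, Lgals4 and Dusp1 (0.986, 0.979 and 0.976).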

How the data were processed

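RNA of KIT+Gr1+ leukemia cells was sequenced from 6 mice, 3 per cohort, with cohorts taken from the sample labels. The authors aligned reads of strand-specific polyA libraries to GRCm38 with Bowtie2 2.2.1, filtered alignments with SAMtools 0.1.19, and deposited RPKM per gene and mouse, which divide by the whole gene with introns. Bowtie2 does not align across splice junctions, and whether strand was used in counting and reads in introns were counted is not given in the sources used here.

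Library sizes and reads per gene were recovered from the steps between RPKM values. Reads were whole in all libraries for 99.6% of the tested genes, 65.0% on the GENCODE M21 gene length (tolerance 0.01) and the rest on a length that makes them whole (tolerance 0.002). Of 41128 genes, 40254 matched GENCODE.

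limma 3.58.1 in R 4.3.3 (lmFit, eBayes with a variance trend, two-sided) was run on log2(RPKM + 0.5) for protein-coding genes above 0.5 RPKM in at least 1 mouse, and on log2(RPM + 0.5), RPM being reads per 1000000 library reads, for those with a mean of at least 10 reads, p-values being adjusted by Benjamini and Hochberg's method across every gene in the fit. The script was tested on simulated data. Exact permutation tests used scipy 1.17.1. Alternatives were other pseudocounts, filters, scalings, gene lengths, weights, limma voom, the criterion of the study (unadjusted p under 0.05 and a 2-fold ratio of mean RPKM, with no pseudocount) and leaving out each mouse.

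The members and lists were chosen with earlier results of these data known. All members were named, and of each list every called gene, or else the 2 with the largest difference. A gene of the lists is not reported here. The 3 genes most like each member above 0.5 RPKM were also named.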

Additional observations from a re-analysis of the deposited data

How the results depend on the processing

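No paired analysis was possible because the mouse numbers name animals and the cohorts share none. No result changed sign as a called value under any alternative run. On the RPKM scale, members called lower went from 0 to 1 with a pseudocount of 0.1 RPKM (Meis1, -2.51) and with exon length (Meis1, -3.74), and to 2 under the criterion of the study (Meis1, -1.02, and Pbx4, -0.41), which takes its 2-fold limit from the ratio of mean RPKM without the pseudocount that these log2 values hold (Pbx4 means of 0.456 and 0.221 RPKM). On the RPM scale they went from 1 to 0 with limma voom, where Meis1 stood at -10.17 with an SE of 3.18 and an adjusted p of 0.119, and ranged from 1 to 2 with each mouse left out, Pbx4 ranging from -1.27 to -0.88. The cause of these changes was not tested. Over all genes, 297 of 9522 were lower with the pseudocount of 0.1 RPKM and 416 of 11853 with exon length. The criterion of the study gave 449 of 9522 lower, and limma voom 289 of 11380. Meis1 and Pbx4 passed the filter of 0.5 RPKM through Hoxa9/MTV mice alone, so that the member counts are no support for a direction. Of the members' other differences, 79 on the RPKM scale and 70 on the RPM scale kept their direction and side of the threshold.

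Over the partner and target genes on the RPKM scale, 3 were lower and 2 higher, beside 3.52% and 1.84% of all tested genes. Tested there were 1 other TALE, 5 HOX, 9 modulator, 11 target and 15 TGF-beta genes. The criterion of the study gave 5 lower and 0 higher, no filter or array weights gave 1 higher, and genes of every type gave 0 higher. With each mouse left out the counts were 1 to 5 lower and 0 to 2 higher. On the RPM scale, 2 were lower and 4 higher, beside 3.56% and 2.86% of all tested genes. The numbers tested there were 1, 4, 9, 13 and 16 in the same order of lists. limma voom gave 1 lower and 2 higher, and no variance trend gave 1 higher. Leaving out each mouse gave 2 to 5 lower and 0 to 4 higher. Flt3 and Ccnd1 passed both filters through Hoxa9/MTV mice alone, so that these counts are no support for a direction. Over all tested genes on the RPKM scale, genes of every type gave 204 lower and exon length 298 higher, and leaving out each mouse gave 37 to 497 lower and 24 to 261 higher. On the RPM scale, voom gave 180 higher, and leaving out each mouse gave 55 to 694 lower and 94 to 490 higher. With 3 mice per cohort and under 20 reads in every mouse, a difference in Tgif2 was not detectable at this depth.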
